A study of Homo sapiens with 9 samples.

Results

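The genes described here encode the protein coats, tethers, fusion proteins and small GTPases that carry cargo from the endoplasmic reticulum (ER) through the Golgi to the cell surface and through endosomes. They were taken by name, as every gene of the deposited table whose symbol belongs to a family or complex of the route (SEC, COP, TMED, SSR, SPCS, SRP, SRPR, TRAPPC, RAB, SNX, VPS, STX, VAMP, ARF, ARFG, GOLGA, AP-1 to AP-4, CHMP, EXOC and COG), and this gave 115 of the 6499 genes listed. The RNA came from WI-38 cells at population doubling 30, diploid fibroblasts first grown from human lung that divide only a limited number of times. Control cells received DMSO, a solvent, and the senescence model received 1 μM doxorubicin, an anthracycline that damages DNA, for 12 h. The study does not name the solvent of doxorubicin. Both groups were then kept for 48 h in medium with DMSO, and each had 3 libraries read as pairs of 150 bp. A further group given oridonin after doxorubicin was not analysed here. All groups are of 1 cell line, and the labels do not say whether the libraries of a group came from separate cultures, so p-values measure only the spread between these libraries, which may be technical.

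Secretory proteins enter the ER through the signal recognition particle (SRP) and the SEC61 channel, leave it in vesicles with a COPII coat, and are sorted in the Golgi, where a COPI coat returns material to the ER. RAB GTPases mark each membrane, long tethers catch arriving vesicles, and SNARE proteins fuse them. Endosomes return receptors to other membranes through sorting nexins and send them into lysosomes through the ESCRT complexes, and fibroblasts depend on the secretory route for the collagen they lay down.

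The deposited values are read as TPM (a share of all transcripts, corrected for transcript length so that genes can be compared), although the table names no unit. TPM keeps no read number, so depth is unknown, and the spread between replicates is the measure of precision. The table lists only genes that the authors had called different between these same libraries, so no value below is independent of that choice, and trafficking genes that did not pass were not analysed here. The 5 listed fibroblast markers (COL1A1, COL1A2, COL3A1, PDGFRA and PDGFRB, of 11 looked for) summed to 5842 to 6195 TPM in control and 3930 to 4616 TPM in doxorubicin libraries. The other markers summed to 33.8 to 36.5 and 48.2 to 51.3 TPM for the 2 listed of 4 epithelial genes and 45.0 to 49.0 and 87.4 to 93.7 TPM for the 2 listed of 3 leukocyte genes, of which PTPRC, the defining one, was at 0.62 TPM or less, and none of 3 endothelial genes is listed. Their part in the results was not tested. In bulk RNA, fewer cells of a kind and less RNA per cell cannot be told apart.

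The promoters of SEC23A, the member with the largest fall, TRAPPC6A, the one with the largest rise, and SSR4, an abundant member that rose, are shown first, because the members are compared below by direction. They run from 250 bases before the RefSeq start site to 30 bases after it, on the strand of the gene, in GRCh38.p14. Capitals mark an unfolded protein response element (UPRE, TGACGTGG), a sequence that XBP1 and ATF6, the transcription factors of the ER stress response, are known to bind, on either strand. TRAPPC6A holds neither that element nor the others searched, and so has no capitals.
SEC23A (chr14:39103206-39103485, minus strand): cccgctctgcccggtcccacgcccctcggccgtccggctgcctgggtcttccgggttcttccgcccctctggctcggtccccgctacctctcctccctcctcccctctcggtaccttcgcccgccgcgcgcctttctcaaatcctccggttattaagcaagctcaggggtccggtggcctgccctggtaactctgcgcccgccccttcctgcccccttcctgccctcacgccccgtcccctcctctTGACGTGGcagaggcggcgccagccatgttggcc
SSR4 (chrX:153794418-153794697, plus strand): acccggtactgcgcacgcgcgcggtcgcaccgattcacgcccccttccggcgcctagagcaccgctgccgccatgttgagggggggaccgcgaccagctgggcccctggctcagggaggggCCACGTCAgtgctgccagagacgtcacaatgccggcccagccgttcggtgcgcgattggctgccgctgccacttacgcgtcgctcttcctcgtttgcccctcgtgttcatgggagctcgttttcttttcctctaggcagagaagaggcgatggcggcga
TRAPPC6A (chr19:45178208-45178487, minus strand): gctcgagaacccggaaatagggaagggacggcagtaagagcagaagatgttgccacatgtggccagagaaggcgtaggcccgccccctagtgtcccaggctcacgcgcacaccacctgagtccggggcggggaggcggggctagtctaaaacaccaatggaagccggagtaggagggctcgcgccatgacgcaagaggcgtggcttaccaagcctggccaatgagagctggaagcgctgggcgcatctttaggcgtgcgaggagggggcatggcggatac

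The RefSeq table held a promoter for 99 of the 115 members. The motifs given here and in the next paragraph were chosen after matches of these and other motifs had been counted. Their shares are therefore descriptions, and an enrichment was not tested. The UPRE, on either strand, occurred in 9 of the 99 (9.09%), against 1.46% of the 4395 tested genes with a promoter in the table and 0.927% of all 27305 genes in it. The 9 were SSR4, SEC23A, SEC24A, SEC16A, SEC16B, COPA, COPB1, STX5 and ARFGEF3, and thus 7 of them encode parts of the translocon, the COPII coat with its exit sites, or the COPI coat. After doxorubicin 2 of the 9 (SSR4 and STX5) were higher and 5 lower, so that the element was found on both sides. Among all 99 members with a promoter 15 were higher and 41 lower. In SSR4, COPB1 and SEC16A it lies in the reverse orientation. These are the windows around 5 of the matches, with the element in capitals.
COPA (chr1:160343221-160343271, minus strand): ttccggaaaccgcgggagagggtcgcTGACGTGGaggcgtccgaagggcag
COPB1 (chr11:14499826-14499885, minus strand): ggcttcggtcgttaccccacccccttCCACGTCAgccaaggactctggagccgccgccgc
SEC24A (chr5:134648580-134648639, plus strand): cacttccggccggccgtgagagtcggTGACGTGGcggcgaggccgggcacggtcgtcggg
SEC16B (chr1:177984282-177984341, minus strand): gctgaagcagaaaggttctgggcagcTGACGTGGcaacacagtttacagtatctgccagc
STX5 (chr11:62832034-62832093, minus strand): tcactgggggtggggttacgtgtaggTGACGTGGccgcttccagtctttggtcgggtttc

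The CLEAR element in its palindromic form (TCACGTGA), which TFEB and its relatives bind at lysosomal genes, was in the promoters of 8 of the 99 members (8.08%), against 2.75% of the tested genes and 1.18% of all genes in the table. The 8 were TRAPPC2L and VPS11, which rose, ARFGEF2, RAB3GAP2 and VPS26C, which fell, and STX4, STX6 and CHMP4A, which did not pass the thresholds. Of the 99 members, 15 rose and 41 fell. The cyclic AMP response element (CRE, TGACGTCA), which shares the letters TGACGT with the UPRE, was in 2 members (2.02%), AP2B1 and TRAPPC1, against 4.25% of the tested and 2.25% of all genes. The 2 forms of the ER stress response element, CCAAT and CCACG with 9 bases between them and ATTGG and CCACG with 1 base between them, were in no member and in 0.159% and 0.205% of the tested genes (0.0916% and 0.0696% of all genes). The reverse strand of the UPRE also spells CCACG. A match describes the letters of the window and is not a measured binding site. The windows around the CLEAR element of the 5 members past the thresholds follow, with the element in capitals.
TRAPPC2L (chr16:88857089-88857148, plus strand): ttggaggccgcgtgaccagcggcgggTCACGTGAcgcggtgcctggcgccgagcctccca
VPS11 (chr11:119067757-119067816, plus strand): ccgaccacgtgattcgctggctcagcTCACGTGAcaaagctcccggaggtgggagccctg
ARFGEF2 (chr20:48921691-48921740, plus strand): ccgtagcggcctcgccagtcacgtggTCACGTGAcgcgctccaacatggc
RAB3GAP2 (chr1:220272520-220272579, minus strand): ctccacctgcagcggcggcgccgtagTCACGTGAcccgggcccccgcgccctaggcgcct
VPS26C (chr21:37267383-37267442, minus strand): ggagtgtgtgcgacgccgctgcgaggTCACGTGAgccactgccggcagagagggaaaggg

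To see which steps of the route differed after doxorubicin, log2(TPM + 1) was fitted with limma for every listed gene with a mean of at least 1 TPM, and 108 of the 115 members were tested. Changes of low genes come out too small on it. A member was counted as changed at a Benjamini-Hochberg adjusted p under 0.05, over the 5721 genes tested, and a fold over 1.2. Of the 108, 65 passed (60.2%), against 71.2% of all genes tested. Higher levels were found for 17 (15.7%, against 22.7% of all genes) and lower levels for 48 (44.4%, against 48.5%). In 86 members the 3 doxorubicin values lay on 1 side of the 3 control values, 36 above and 50 below, against 80.7% of all genes tested. Taken alone, no member can reach p = 0.05, because an exact permutation test (two-sided) with 3 libraries a side goes no lower than 0.1. The log2 fold changes ran from -0.93 (SEC23A) to 1.37 (TRAPPC6A) with a median of -0.19, against -0.28 for all genes. The members summed to 6792 to 6868 TPM in control and 7603 to 7668 TPM in doxorubicin libraries. All listed genes together summed to 543228 to 548178 TPM and 586117 to 599670 TPM, so a higher sum was also seen over the whole list.

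The split between higher and lower depended on the scale. After quantile normalization 28 members were higher and 26 lower, against 32.9% and 29.1% of all genes, and after scaling each library by the median ratio to the other libraries 49 were higher and 31 lower, against 43.7% and 37.6%. The median of all genes was -0.02 and -0.09 on these scales and that of the members 0.01 and 0.03. On all 3 scales 16 members passed as higher and 22 as lower, and none passed in opposite directions on 2 scales. Both other scales were computed from the listed genes alone, which the authors had called different between these groups. The medians just given rest on this choice too. Passing on all 3 scales is therefore no independent support for a gene. Directions are given below on the TPM scale, with the calls on the other scales beside them. Counts on those other scales stand beside the shares of all genes just given.

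**Figure D1:**
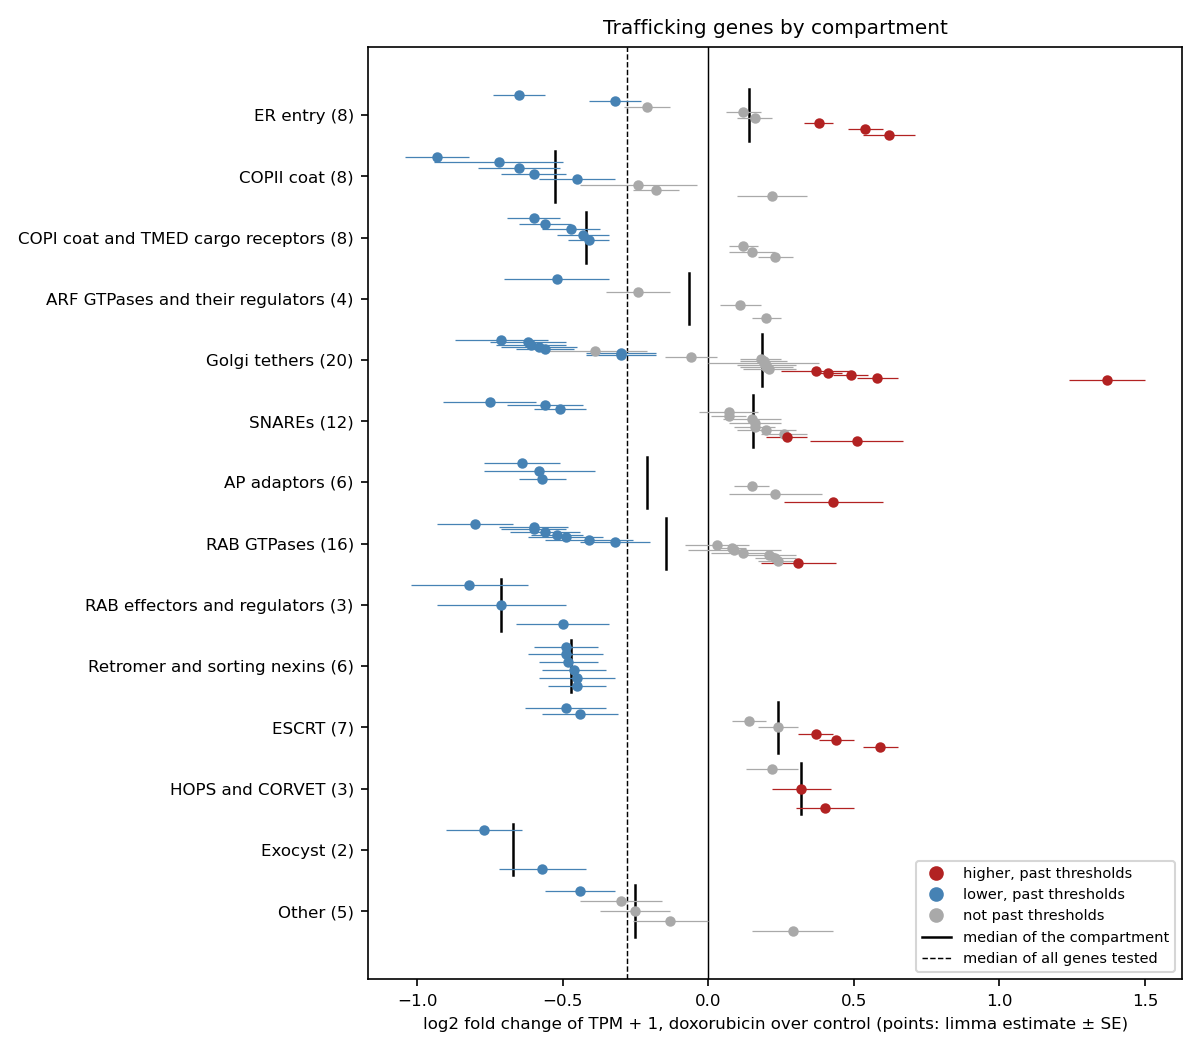
Log2 fold change of TPM + 1 (doxorubicin over control, horizontal axis) of the 108 members tested, in rows by compartment with the number of members in brackets. Each point is the limma estimate of 1 gene with its standard error (3 libraries per group), red and blue points passed the thresholds, short vertical lines are the medians of the compartments and the dashed line is the median of all genes tested (-0.28). The 5 sorting nexins and VPS26C lie together between -0.49 and -0.45, while the ER entry, Golgi tether and ESCRT rows hold genes on both sides of 0.

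Genes of ER entry moved in both directions, and 3 of 8 were higher and 2 lower, with a median log2 fold change of 0.14. SRP14, a small subunit of SRP (ENSG00000140319, chromosome 15, 40035739 to 40039188), was at 536, 538 and 579 TPM in control and 704, 738 and 711 TPM in doxorubicin libraries. SSR4, the delta subunit of the translocon-associated protein complex (ENSG00000180879, chromosome X, 153793516 to 153798505), was at 454, 449.7 and 513 TPM and 697, 704 and 659 TPM. Both groups of values are separate in both genes, and these are the members with the highest levels of all. The log2 fold change was 0.38 for SRP14 (SE 0.05, limma adjusted p = 0.000160) and 0.54 for SSR4 (SE 0.06, adjusted p = 5.27e-05). SEC11C, a catalytic subunit of the signal peptidase that cuts off signal sequences, went from 26.9 ± 1.79 to 41.7 ± 2.77 TPM (SD, n = 3 each), with 0.62 as its log2 fold change (SE 0.09, adjusted p = 0.000185).

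SPCS3, an accessory subunit of the same signal peptidase (ENSG00000129128, chromosome 4, 176319964 to 176332245), was at 55.4, 59.3 and 53.8 TPM in control and 35.2, 31.6 and 40.3 TPM in doxorubicin libraries, and every doxorubicin value lies under every control value. Its log2 fold change was -0.65 (SE 0.09, adjusted p = 0.000234). SRP72, a large SRP subunit, had a mean of 47.9 ± 2.11 TPM in control and 38.4 ± 4.13 TPM in doxorubicin libraries (SD, n = 3) and fell, with a log2 fold change of -0.32. The ratio of SEC11C to SPCS3 within a library, from which any scale factor of the library drops out, was 0.463 to 0.492 in control and 0.957 to 1.37 in doxorubicin libraries, and the doxorubicin mean was 2.48 times the control mean. The ratio of SRP14 to SRP72 was 10.7 to 12.5 and 16.9 to 21.8. These pairs, and those given below for other complexes, were chosen after their values were seen, and their ratios were not tested.

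Of the SEC61 channel itself only SEC61B is listed, and on the TPM scale SEC61B and the channel's partner SEC63 stayed within the fold limit. SEC61B, the beta subunit of the SEC61 channel, was at 399, 392 and 398 TPM and 450.0, 479 and 406 TPM, with the doxorubicin values above the control values but a log2 fold change of 0.16 (adjusted p = 0.0366). SEC63, a membrane co-chaperone of the channel, had a log2 fold change of -0.21, and SPCS1, another accessory signal peptidase subunit, one of 0.12, both under the fold limit. SRP14 did not pass after quantile normalization (0.15), and SRP72 passed on neither of the other scales, nor without doxorubicin replicate 2 (-0.23). On these, ER entry had 2 higher and 1 lower (quantile) and 5 higher and 1 lower (median ratio), and SEC11C, SSR4 and SPCS3 passed on all 3. After median-ratio scaling SEC61B (0.39, limma adjusted p = 0.00804) and SPCS1 (0.35, adjusted p = 0.00362) passed as higher.

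The COPII coat buds vesicles from the ER. Of its 8 genes with the exit site scaffolds, 5 fell (62.5%, against 48.5% of all genes), 3 did not pass and none rose, and the median log2 fold change was -0.52, the lowest of the compartments with more than 3 genes. SEC23A, which forms the inner coat with SEC24 (ENSG00000100934, chromosome 14, 39031919 to 39109646), was at 63.4, 70.0 and 61.3 TPM in control and 34.2, 28.1 and 38.8 TPM in doxorubicin libraries. The highest doxorubicin value is far under the lowest control value, and the mean went from 64.9 ± 4.54 to 33.7 ± 5.34 TPM (SD, n = 3 each). The log2 fold change of -0.93 (SE 0.11, limma adjusted p = 6.94e-05) is the largest fall among the members tested on this scale, where changes of low genes come out too small. By the ratio of mean TPM, SEC23A was at 0.52, and the scarcer SEC16B (0.41), RAB11FIP1 (0.48) and RAB11FIP2 (0.48) fell further.

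The 3 listed SEC24 genes, whose proteins select the cargo, all fell. SEC24D, the most abundant of them, was at 65.2, 74.5 and 63.3 TPM and 44.5, 38.1 and 51.2 TPM, with a log2 fold change of -0.60 (SE 0.11, adjusted p = 0.000869). SEC24A was at 8.92, 9.55 and 8.13 TPM and 5.27, 4.35 and 6.34 TPM (-0.65, SE 0.14, adjusted p = 0.00204) and SEC24B at 9.43, 10.3 and 9.13 TPM and 6.51, 5.99 and 7.91 TPM (-0.45, SE 0.13, adjusted p = 0.00820). None of the 3 overlaps between the groups. SEC24B did not pass on either of the other scales, and SEC23A, SEC24A and SEC24D passed on both.

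SEC16A and SEC16B scaffold the ER exit sites. SEC16B was at 1.29, 1.89 and 2.48 TPM and 1.38, 0.480 and 0.450 TPM, so that 1 doxorubicin library lies within the control range although the gene passed (-0.72, adjusted p = 0.0125). SEC16A had a log2 fold change of -0.18 (adjusted p = 0.0613) and SEC23IP, a binding partner of SEC23, one of -0.24 (adjusted p = 0.264). SEC31B, a form of the outer coat, was at 3.99, 4.51 and 4.17 TPM and 4.63, 4.93 and 5.79 TPM and did not pass here (0.22, adjusted p = 0.115), while on both other scales it was higher (0.60 and 0.41). The compartment counted 1 higher and 3 lower after quantile normalization and 1 higher and 4 lower after median-ratio scaling.

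In the COPI coat and the p24 (TMED) cargo receptors, 5 of 8 genes tested fell (62.5%, against 48.5% of all genes). None rose, against 22.7% of all genes, and the median was -0.42. COPA, the alpha subunit of the coat, was at 120.5, 134 and 117 TPM in control and 88.5, 83.8 and 103 TPM in doxorubicin libraries (-0.43, SE 0.09, adjusted p = 0.00145), and COPB1, the beta subunit, had a log2 fold change of -0.41 (SE 0.07, adjusted p = 0.000791). Neither gene overlaps between the groups. COPE, the epsilon subunit, was at 300.4, 310.2 and 315 TPM and 345, 387 and 355 TPM, also without overlap but in the other direction, and its log2 fold change of 0.23 (adjusted p = 0.00489) stayed under the fold limit. The ratio of COPE to COPA within a library was 2.32 to 2.70 in control and 3.46 to 4.62 in doxorubicin libraries. COPZ2, a zeta subunit, overlapped between the groups (0.15, adjusted p = 0.0871).

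The TMED proteins ride in both coats. TMED2 (ENSG00000086598, chromosome 12, 123584531 to 123598577) was at 134, 148 and 127 TPM and 90.8, 83.3 and 102 TPM, with every doxorubicin value lower (-0.56, SE 0.09, adjusted p = 0.000299). TMED5 went from 24.0 ± 1.08 to 15.4 ± 0.766 TPM (-0.60, adjusted p = 0.000285) and TMED7 from 34.8 ± 2.04 to 24.9 ± 2.72 TPM (-0.47, adjusted p = 0.00173; SD, n = 3 each). TMED3, the most abundant of the family here, was at 191, 192 and 181 TPM and 200.4, 203 and 209 TPM and did not pass (0.12, adjusted p = 0.0691). The ratio of TMED3 to TMED2 within a library was 1.30 to 1.43 in control and 2.05 to 2.43 in doxorubicin libraries. On the quantile scale the compartment again had 5 lower and none higher, but on the median-ratio scale COPA, COPB1 and TMED7 no longer passed and COPE, COPZ2 and TMED3 were higher, giving 3 higher and 2 lower.

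**Figure D2:**
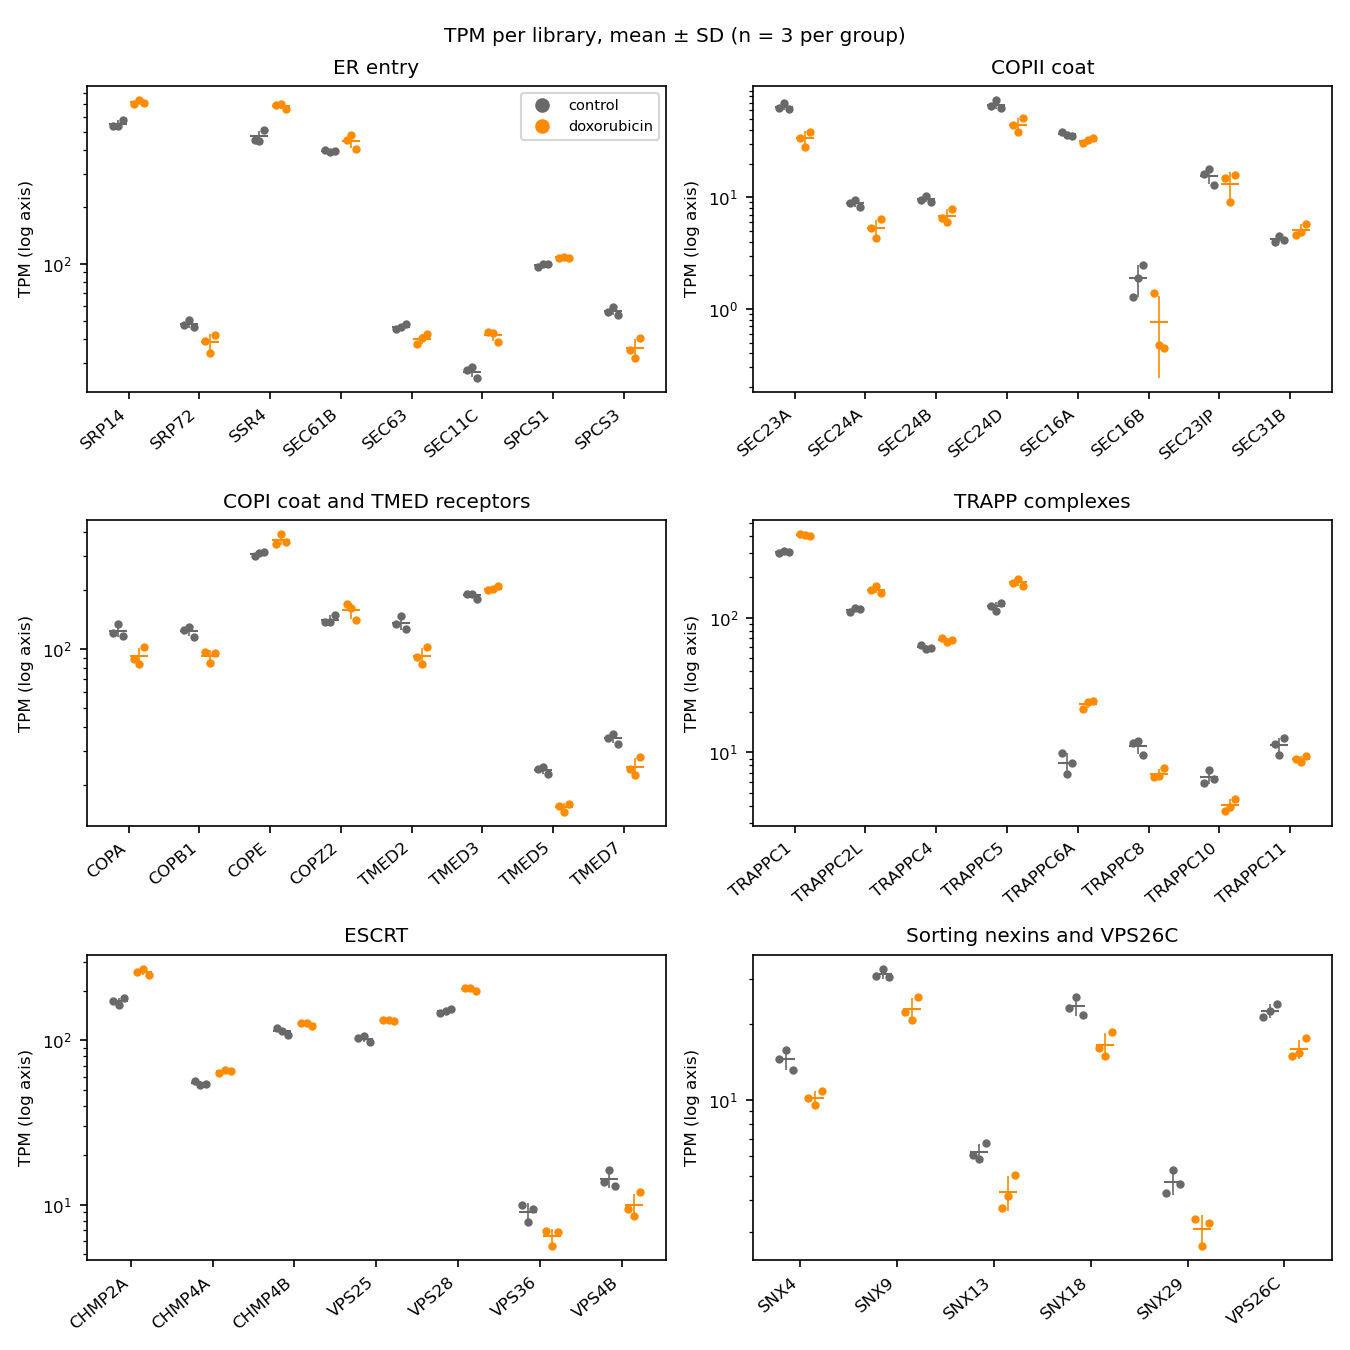
TPM of each library on a log axis for 6 groups of members, with control libraries in grey, doxorubicin libraries in orange, and the horizontal mark and bar giving mean ± SD (n = 3). In the COPII panel the values of SEC23A fall from 64.9 ± 4.54 to 33.7 ± 5.34 TPM. In the TRAPP and ESCRT panels the abundant TRAPPC1 and CHMP2A rise and the scarcer TRAPPC8 and VPS4B fall. TRAPPC6A, which is scarce in control libraries (8.35 ± 1.48 TPM), rises to 22.9 ± 1.62 TPM.

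ARF GTPases recruit the COPI coat and clathrin adaptors. Of the 4 genes tested 1 fell and none rose. ARFGEF2, an exchange factor that loads ARF with GTP at the trans-Golgi, was at 10.2, 7.42 and 6.38 TPM and 5.84, 4.09 and 5.70 TPM (-0.52, SE 0.18, adjusted p = 0.0195), and it did not pass on either other scale or without control replicate 1 (-0.36, adjusted p = 0.0877) or doxorubicin replicate 2 (-0.39, adjusted p = 0.0661). Its relative ARFGEF1 had a log2 fold change of -0.24 (adjusted p = 0.0767). ARF5 was at 144, 140.1 and 138 TPM and 158, 163 and 163 TPM, without overlap, but its log2 fold change was 0.20 (adjusted p = 0.00867), under the fold limit, and that of ARFGAP1, which ends the ARF signal, was 0.11 (adjusted p = 0.184). No ARF gene passed after quantile normalization, and after median-ratio scaling ARF5 (0.42, adjusted p = 0.00109) and ARFGAP1 (0.33, adjusted p = 0.00439) were higher and none was lower.

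Golgi tethers were split, with 5 of 20 higher, 7 lower and a median of 0.18. Most of this lay within the TRAPP complexes, which tether vesicles and activate RAB GTPases, where 4 of 10 rose and 3 fell. TRAPPC6A, a subunit of the TRAPP core (ENSG00000007255, chromosome 19, 45162928 to 45178237), was at 9.82, 6.87 and 8.37 TPM in control and 21.1, 23.7 and 24.0 TPM in doxorubicin libraries. The lowest doxorubicin value is above the highest control value by more than the range within either group, and the log2 fold change of 1.37 (SE 0.13, limma adjusted p = 1.38e-05) is the largest rise among the members tested. The mean rose from 8.35 ± 1.48 to 22.9 ± 1.62 TPM (SD, n = 3 each).

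TRAPPC1 and TRAPPC5, also subunits of the core, and TRAPPC2L rose as well. TRAPPC1 (ENSG00000170043, chromosome 17, 7930345 to 7932123) was at 301, 314 and 306 TPM and 415, 407 and 405 TPM (0.41, SE 0.05, adjusted p = 6.56e-05). TRAPPC5 went from 121 ± 8.48 to 182 ± 10.2 TPM (0.58, adjusted p = 6.94e-05) and TRAPPC2L from 114 ± 3.24 to 161 ± 8.63 TPM (0.49, adjusted p = 9.06e-05; SD, n = 3 each). TRAPPC4, also of the core, was higher in every doxorubicin library but under the fold limit (0.18, adjusted p = 0.0302).

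On the TPM scale the large subunits that distinguish TRAPPII from TRAPPIII were lower or did not pass. TRAPPC8 of TRAPPIII was at 11.6, 12.1 and 9.61 TPM and 6.55, 6.64 and 7.62 TPM (-0.61, SE 0.12, adjusted p = 0.00160), TRAPPC10 of TRAPPII went from 6.53 ± 0.749 to 4.04 ± 0.434 TPM (-0.58, adjusted p = 0.00248), and TRAPPC11 of TRAPPIII from 11.3 ± 1.58 to 8.92 ± 0.425 TPM (-0.30, adjusted p = 0.0462; SD, n = 3 each). None overlapped between the groups, although TRAPPC11 had a log2 fold change of -0.01 after quantile normalization and did not pass without control replicate 1 or 3 or doxorubicin replicate 1 or 2 (-0.30 to -0.21). TRAPPC12 and TRAPPC14 did not pass (0.21 and 0.20), but TRAPPC14 was higher after quantile normalization (0.38) and both were higher after median-ratio scaling (0.44 and 0.42). The ratio of TRAPPC1 to TRAPPC8 within a library was 25.8 to 31.9 in control and 53.2 to 63.3 in doxorubicin libraries. The TRAPP genes counted 5 higher and 1 lower after quantile normalization and 7 higher and 2 lower after median-ratio scaling, and the 4 that rose and TRAPPC8 passed on all 3 scales.

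Golgins are long coiled proteins that catch vesicles at the Golgi. GOLGA3 was at 24.6, 20.9 and 18.3 TPM and 13.8, 11.8 and 14.8 TPM (-0.62, SE 0.13, adjusted p = 0.00176), and GOLGA4 of the trans-Golgi went from 21.5 ± 0.810 to 14.3 ± 1.13 TPM (-0.56, adjusted p = 0.000651; SD, n = 3 each), both without overlap and both on all 3 scales. GOLGA8B rose from 8.06 ± 0.295 to 10.8 ± 1.69 TPM (0.37, adjusted p = 0.0200) and GOLGA8A did not pass (0.19), but these are near-identical copies between which reads could be split, so both values are uncertain. GOLGA8B did not pass without control replicate 2 (0.35, adjusted p = 0.0576) or doxorubicin replicate 3 (0.26, adjusted p = 0.0545). The same holds for GOLGA6L9, which did not pass (-0.39), and for GOLGA2P7, annotated as a transcribed pseudogene, whose level went from 6.01 ± 0.968 to 3.32 ± 0.800 TPM (-0.71, adjusted p = 0.00297) without passing after quantile normalization (-0.33, adjusted p = 0.0505).

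Of the remaining tethers, COG1 and COG4 of the conserved oligomeric Golgi complex did not pass (0.19 and 0.20). VPS54 of the GARP complex, which receives vesicles from endosomes, passed as lower (-0.30, adjusted p = 0.0417) although its sign turned after quantile normalization (0.05) and it did not pass without any 1 of 5 libraries, control replicate 2 being the exception (-0.35 to -0.24), and VPS51 of the same complex had a log2 fold change of -0.06. The 20 tethers together counted 7 higher and 3 lower on the quantile scale and 11 higher and 5 lower on the median-ratio scale.

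SNAREs on the vesicle and its target pair to fuse the membranes. Of 12 genes 2 rose, 3 fell and 7 did not pass, with a median of 0.15. STX7, a syntaxin of late endosomes, was at 13.2, 15.3 and 11.4 TPM and 6.37, 6.79 and 9.47 TPM (-0.75, SE 0.16, adjusted p = 0.00180). VAMP7, a vesicle SNARE of lysosomes, went from 27.9 ± 1.22 to 19.3 ± 1.62 TPM (-0.51, adjusted p = 0.000833), and STX2, a syntaxin of the plasma membrane, from 15.0 ± 1.98 to 9.87 ± 1.45 TPM (-0.56, adjusted p = 0.00408; SD, n = 3 each). These 3 fell without overlap between the groups on the TPM scale and passed on all 3 scales.

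STX3, another plasma membrane syntaxin, was at 3.84, 5.09 and 3.18 TPM and 7.02, 6.02 and 5.28 TPM (0.51, SE 0.16, adjusted p = 0.0148). Its values do not overlap, yet it did not pass without control replicate 3 (0.38, adjusted p = 0.0596) or doxorubicin replicate 1 (0.42, adjusted p = 0.0632). STX5, the syntaxin of ER to Golgi fusion, was at 36.9, 40.4 and 39.4 TPM and 45.5, 47.6 and 48.2 TPM (0.27, SE 0.07, adjusted p = 0.00710), and its fold was under the limit without control replicate 1 (0.24) or doxorubicin replicate 3 (0.25).

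Among the SNAREs that did not pass, VAMP1 and VAMP3, a pair of related vesicle SNAREs, stood far apart in level. VAMP3 of recycling endosomes was at 105, 109 and 106 TPM and 112, 109 and 114 TPM (0.07), and VAMP1 at 14.3, 14.8 and 13.4 TPM and 16.9, 16.9 and 15.3 TPM (0.20), both with higher values in every doxorubicin library. VAMP5 was at 269 ± 35.6 and 321 ± 4.84 TPM (SD, n = 3 each) and missed only the fold limit (0.26, adjusted p = 0.0181). STX4, STX6, STX8 and VPS45, the last a regulator of endosomal SNAREs, had log2 fold changes of 0.07 to 0.16. On the quantile scale 5 SNAREs were higher and 3 lower, and on the median-ratio scale 9 were higher and 3 lower.

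AP adaptors link cargo to clathrin or related coats at the Golgi, plasma membrane and endosomes. Of 6 tested 1 rose and 3 fell, with a median of -0.21. AP3M1, the mu subunit of AP-3, was at 17.4, 19.6 and 17.3 TPM and 10.9, 9.52 and 13.5 TPM (-0.64, SE 0.13, adjusted p = 0.00149). AP2B1, the beta subunit of AP-2 at the plasma membrane, went from 68.9 ± 4.26 to 46.1 ± 3.68 TPM (SD, n = 3 each; -0.57, adjusted p = 0.000203). Both fell without overlap and on all 3 scales.

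The gamma subunits of AP-1, which sorts at the trans-Golgi, differed from each other. AP1G1 was at 21.1, 25.4 and 21.4 TPM and 16.2, 10.2 and 19.2 TPM (-0.58, SE 0.19, adjusted p = 0.0190), with doxorubicin replicate 2 the lowest, and it did not pass on the other scales or without control replicate 2 (-0.50, adjusted p = 0.0654). AP1G2 was at 9.18, 6.0 and 5.80 TPM and 10.4, 8.27 and 10.2 TPM and passed as higher (0.43, adjusted p = 0.0362) although control replicate 1 lies within the doxorubicin range, and it did not pass without control replicate 2 or 3 or doxorubicin replicate 1 or 3 (0.33 to 0.39). AP1S1, a sigma subunit of AP-1, was at 217 ± 12.8 and 241 ± 8.92 TPM (SD, n = 3 each) and stayed under the fold limit (0.15), and AP4S1 of AP-4 did not pass (0.23, adjusted p = 0.206). The adaptors counted 2 higher and 2 lower on the quantile scale and 3 higher and 2 lower on the median-ratio scale.

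Of the 16 RAB GTPases tested, 1 was higher and 8 lower, with a median of -0.14. RAB23, known from the primary cilium and hedgehog signalling (ENSG00000112210, chromosome 6, 57186992 to 57222314), was at 15.2, 17.0 and 15.0 TPM and 8.11, 7.55 and 10.2 TPM (-0.80, SE 0.13, adjusted p = 0.000374). RAB10, which moves vesicles to the cell surface, was at 61.0, 77.8 and 55.1 TPM and 41.8, 37.6 and 46.2 TPM (-0.60, SE 0.12, adjusted p = 0.00180), with control replicate 2 above the others. In both genes every doxorubicin value lies under every control value. RAB8A and RAB8B, a pair of close relatives of RAB10 that act in exocytosis, went from 38.9 ± 2.55 to 26.9 ± 1.95 TPM (-0.52, adjusted p = 0.000565) and from 9.50 ± 0.672 to 5.93 ± 0.377 TPM (-0.60, adjusted p = 0.00105; SD, n = 3 each).

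RAB3D and RAB27A act at secretory granules and related organelles. RAB3D was at 2.28, 2.10 and 2.13 TPM and 1.15, 1.06 and 1.25 TPM (-0.56, adjusted p = 0.00226), with no overlap. RAB27A was at 13.8, 13.2 and 11.6 TPM and 11.8, 9.55 and 9.16 TPM, with overlap, and passed narrowly (-0.32, adjusted p = 0.0376). It lost that call on both other scales (-0.05 and -0.11) and without control replicate 1 or 2 or doxorubicin replicate 2 or 3 (-0.25 to -0.30). RAB30 and RAB43 of the Golgi also passed as lower (-0.41 and -0.49), neither on the quantile scale, and RAB30 did not pass without control replicate 1 or 3 or doxorubicin replicate 1 or 2 (-0.42 to -0.31).

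RAB4B, a GTPase of recycling endosomes, was the only RAB to pass as higher on the TPM scale, at 23.0, 18.6 and 25.2 TPM and 28.2, 30.8 and 24.3 TPM (0.31, adjusted p = 0.0418). Its groups overlap, and it did not pass without control replicate 1 or 2 or doxorubicin replicate 1 or 2 (0.19 to 0.34, adjusted p = 0.0635 to 0.163) or in limma without trend and robust (adjusted p = 0.0661). RAB11B, of the same route, was at 75.0 ± 2.99 and 87.9 ± 4.23 TPM and stayed under the fold limit (0.23, adjusted p = 0.0111). So did RAB13, the most abundant RAB listed, at 266 ± 23.1 and 314 ± 19.1 TPM (0.24, adjusted p = 0.0126; SD, n = 3 each). RAB24, RAB34, RAB3B, RAB40B and RAB7B had log2 fold changes of 0.03 to 0.21. After quantile normalization 3 RABs were higher and 4 lower, and after median-ratio scaling 6 were higher and 6 lower. RAB10, RAB23, RAB3D and RAB8A passed as lower and RAB4B as higher on all 3 scales.

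All 3 RAB effectors and regulators tested fell, against 48.5% of all genes, with a median of -0.71. RAB11FIP1 and RAB11FIP2 bind RAB11 on recycling endosomes. RAB11FIP1 was at 4.22, 4.39 and 3.26 TPM and 1.59, 1.18 and 2.88 TPM (-0.82, SE 0.20, adjusted p = 0.00484) and RAB11FIP2 at 5.92, 2.98 and 2.60 TPM and 1.81, 1.75 and 1.92 TPM (-0.71, SE 0.22, adjusted p = 0.0131). Control replicate 1 of RAB11FIP2 is far above the others. RAB3GAP2, a subunit of a complex that regulates RAB3 and RAB18, had a log2 fold change of -0.50 (adjusted p = 0.0157). RAB11FIP1 passed on all 3 scales, RAB11FIP2 on the TPM and median-ratio scales, and RAB3GAP2 on the TPM scale alone and not without control replicate 2 (-0.44, adjusted p = 0.0562).

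On the TPM scale the sorting nexins and VPS26C were the most uniform compartment. All 6 fell, against 48.5% of all genes, by 0.45 to 0.49 on the log2 scale (median -0.47). SNX9 and SNX18 bend membranes in endocytosis, and SNX4 works in recycling from endosomes. SNX18 was at 23.2, 25.5 and 21.6 TPM in control and 16.0, 14.9 and 18.5 TPM in doxorubicin libraries (-0.49, SE 0.11, adjusted p = 0.00258). SNX9 was at 30.9, 33.1 and 30.6 TPM and 22.2, 20.6 and 25.6 TPM (-0.45, SE 0.10, adjusted p = 0.00202). In both the doxorubicin values all lie under the control values, and this held for the other 4.

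VPS26C is a subunit of retriever, a complex that returns receptors from endosomes to the surface. It was at 21.2, 22.4 and 23.9 TPM and 14.9, 15.3 and 17.5 TPM (-0.48, SE 0.10, adjusted p = 0.00177). SNX4 went from 14.5 ± 1.28 to 10.2 ± 0.665 TPM (-0.46, adjusted p = 0.00362), SNX13 from 6.20 ± 0.472 to 4.30 ± 0.670 TPM (-0.45, adjusted p = 0.0104) and SNX29 from 4.72 ± 0.515 to 3.08 ± 0.401 TPM (-0.49, adjusted p = 0.00695; SD, n = 3 each). SNX13 did not pass without doxorubicin replicate 1 (-0.37, adjusted p = 0.0501). On the other scales all 6 kept a negative sign, but only 3 passed on each, SNX9, SNX18 and VPS26C after quantile normalization and SNX18, SNX29 and VPS26C after median-ratio scaling. After quantile normalization they were less uniform, from -0.33 (SNX9) to -0.06 (SNX13), and after median-ratio scaling they ran from -0.31 (SNX29) to -0.23 (SNX9).

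ESCRT complexes sort membrane proteins into the vesicles inside endosomes. Of 7 genes 3 rose (42.9%, against 22.7% of all genes) and 2 fell (28.6%, against 48.5%), with a median of 0.24. CHMP2A, a filament subunit of ESCRT-III (ENSG00000130724, chromosome 19, 58551566 to 58555124), was at 174, 164 and 180.4 TPM and 261, 273 and 249.5 TPM (0.59, SE 0.06, limma adjusted p = 2.42e-05). VPS28 of ESCRT-I was at 146, 151 and 155 TPM and 207, 209 and 199 TPM (0.44, SE 0.06, adjusted p = 8.57e-05), and VPS25 of ESCRT-II went from 102 ± 4.59 to 132 ± 1.61 TPM (SD, n = 3 each; 0.37, adjusted p = 0.000453). All 3 rose without overlap and passed on all 3 scales.

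VPS4B, the ATPase that takes the ESCRT-III filaments apart, was at 13.7, 16.2 and 13.1 TPM and 9.38, 8.55 and 11.9 TPM (-0.49, SE 0.14, adjusted p = 0.00816), and VPS36, another ESCRT-II subunit, at 10.0, 7.85 and 9.45 TPM and 6.93, 5.59 and 6.80 TPM (-0.44, SE 0.13, adjusted p = 0.0114). Both are lower in every doxorubicin library, VPS36 did not pass on either other scale or without control replicate 1 (-0.38, adjusted p = 0.0526), and VPS4B did not pass after quantile normalization. The ratio of VPS25 to VPS36 within a library was 10.3 to 13.5 in control and 19.2 to 23.9 in doxorubicin libraries. CHMP4A and CHMP4B, paralogs of the main ESCRT-III filament protein, were higher in every doxorubicin library and under the fold limit (0.24, adjusted p = 0.00697, and 0.14, adjusted p = 0.0492). ESCRT counted 4 higher and none lower after quantile normalization and 5 higher and 1 lower after median-ratio scaling.

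The 3 genes filed with the HOPS and CORVET tethers, which dock endosomes and lysosomes, all had higher values in every doxorubicin library. Of these 2 passed (66.7%, against 22.7% of all genes). VPS11, a core subunit of both tethers, was at 17.2, 18.7 and 18.4 TPM and 27.0, 23.2 and 22.6 TPM (0.40, SE 0.10, adjusted p = 0.00420). VPS33B, a relative of the HOPS subunit VPS33A, was at 11.4, 11.3 and 10.7 TPM and 14.5, 14.9 and 13.3 TPM (0.32, SE 0.10, adjusted p = 0.0137) and did not pass without doxorubicin replicate 1 (adjusted p = 0.0518). VPS16, the other core subunit listed, stayed under the fold limit (0.22, adjusted p = 0.0383). All 3 passed as higher on both other scales.

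The exocyst tethers vesicles at the plasma membrane, and both of its listed genes fell, against 48.5% of all genes. EXOC5 was at 9.92, 13.4 and 10.7 TPM and 6.52, 5.77 and 6.27 TPM (-0.77, SE 0.13, adjusted p = 0.000546) and EXOC6B at 9.36, 9.93 and 9.34 TPM and 6.11, 4.71 and 7.74 TPM (-0.57, SE 0.15, adjusted p = 0.00652). Neither overlaps between the groups, and EXOC6B did not pass after quantile normalization (-0.22, adjusted p = 0.104). Of the 4 VPS13 genes, whose proteins move lipids between membranes, VPS13B passed as lower (8.01 ± 0.345 to 5.68 ± 0.629 TPM, SD, n = 3 each; -0.44, adjusted p = 0.00737), on neither of the other scales, and VPS13A, VPS13C and VPS13D had log2 fold changes of -0.30 to -0.13. SEC14L2, a lipid-binding protein that shares only its name with the coat genes, did not pass (0.29, adjusted p = 0.0875), but it was higher after quantile normalization (0.55, adjusted p = 0.00686) and median-ratio scaling (0.50, adjusted p = 0.00639), where no VPS13 gene passed.

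The 7 members with a mean under 1 TPM were AP3B2, ARFGEF3, TMED8, GOLGA8O, RAB27B, RAB44 and RAB11FIP4. RAB27B, the close relative of RAB27A, was at 0.180, 0.260 and 0.210 TPM in control and 0.560, 0.470 and 0.390 TPM in doxorubicin libraries, higher in all 3 while RAB27A was lower on average. TMED8 was at 0.920, 0.760 and 0.870 and 0.610, 0.340 and 0.520 TPM, and the near-identical GOLGA8O at 1.23, 1.16 and 0.860 and 0.510, 0.570 and 0.850 TPM, both lower in every doxorubicin library. The other 4 were under 1 TPM in each library, and no fold is given for these low values.

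**Figure D3:**
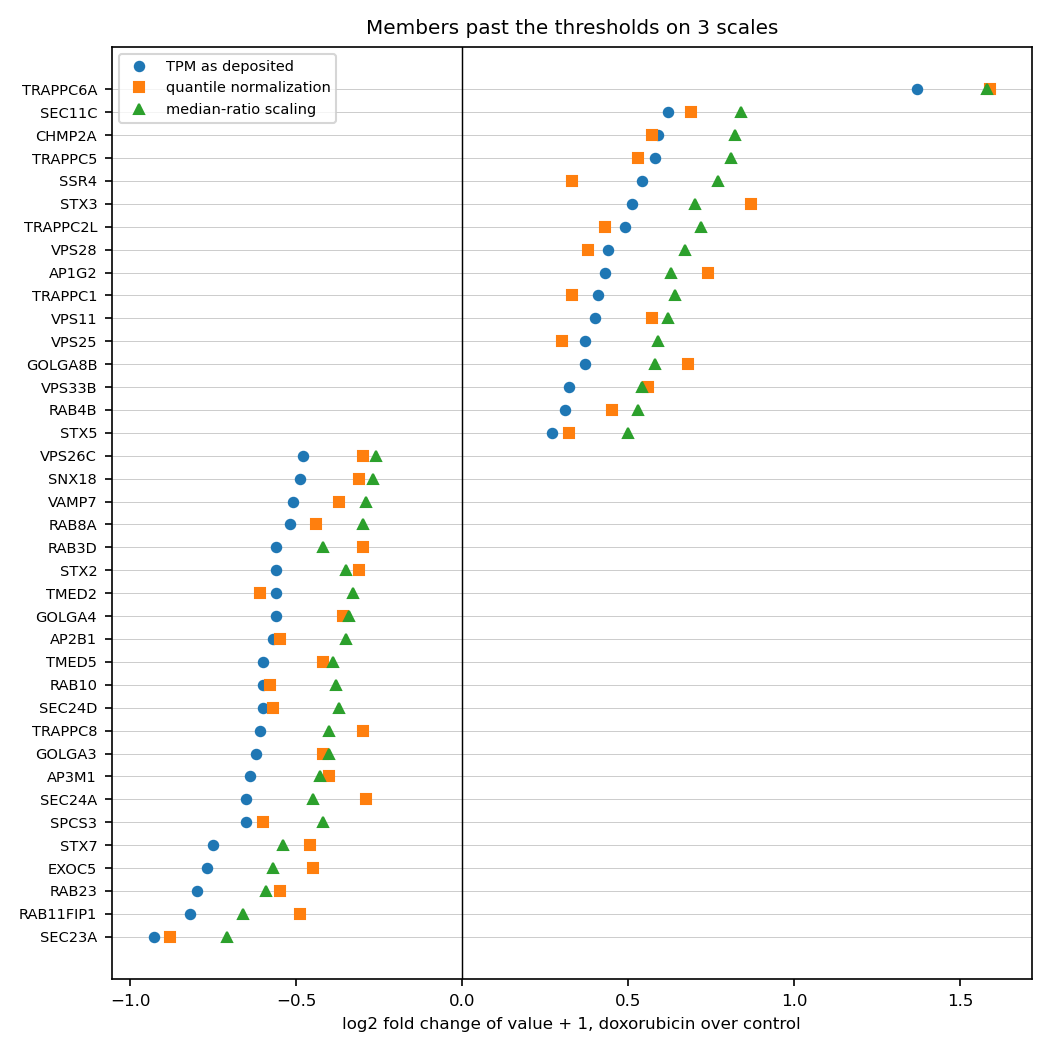
Log2 fold change of value + 1 (doxorubicin over control, horizontal axis) of the 38 members that passed in the same direction on 3 scales, for TPM as deposited, after quantile normalization and after median-ratio scaling. The 16 rises reach from 0.27 (STX5) to 1.37 (TRAPPC6A) and the 22 falls from -0.48 (VPS26C) to -0.93 (SEC23A) on the TPM scale, and the triangles of the median-ratio scale lie to the right of the circles throughout.

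By compartment, the 16 members that passed as higher on all 3 scales were SSR4 and SEC11C of ER entry, TRAPPC1, TRAPPC2L, TRAPPC5, TRAPPC6A and GOLGA8B of the tethers, STX3 and STX5, AP1G2, RAB4B, CHMP2A, VPS25 and VPS28 of ESCRT, and VPS11 and VPS33B. Of these, GOLGA8B, STX3, STX5, AP1G2, RAB4B and VPS33B lost their TPM call when certain single libraries were left out. AP1G2 and RAB4B also overlap between the groups. The 22 that passed as lower on all 3 were SPCS3, SEC23A, SEC24A, SEC24D, TMED2, TMED5, TRAPPC8, GOLGA3, GOLGA4, STX2, STX7, VAMP7, AP2B1, AP3M1, RAB3D, RAB8A, RAB10, RAB23, RAB11FIP1, SNX18, VPS26C and EXOC5. None of these 22 lost its call when a single library was left out. The share of all genes that passed on all 3 scales is not given here, so these lists describe the members only.

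Within the doxorubicin group, replicate 2 stood at the low end of the genes that fell. Of the 48 members that fell, 40 (83.3%) had their lowest doxorubicin value in replicate 2 and 39 (81.2%) their highest in replicate 3, against 73.0% and 77.8% of the 2775 genes that fell. Control replicate 2 held the highest control value in 34 of the 48 (70.8%, against 59.6%). Without doxorubicin replicate 2, 17 members were higher and 43 lower and the median was -0.10. Leaving out 1 library also brought 13 members past the thresholds that did not pass on all 6. As higher these were CHMP4A and VPS16 without control replicate 1, AP4S1, COG4 and SEC14L2 without control replicate 2, VAMP5 without either replicate 3, COPE and RAB11B without doxorubicin replicate 1, TRAPPC12 without doxorubicin replicate 3, and RAB13 without control replicate 1 or 3 or doxorubicin replicate 2, with log2 fold changes of 0.26 to 0.40. As lower they were VPS13C without control replicate 3 (-0.42), VPS13A without doxorubicin replicate 2 (-0.31) and GOLGA6L9 without doxorubicin replicate 3 (-0.56).

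At the median, members that rose had shorter genes and higher levels than members that fell, with 43.0 and 11.8 TPM (21.8 and 8.09 TPM in all genes that rose or fell). The genomic span, from the first to the last base of the gene in GENCODE release 29, had a median of 8.51 kb in the 17 that rose and 64.9 kb in the 48 that fell, against 11.5 and 63.8 kb in all such genes. Spearman's correlation of span with log2 fold change was -0.53 across the 108 members and -0.44 across 5700 genes tested, and that of the mean TPM with log2 fold change was 0.45 and 0.19. These are descriptions across genes of the same 6 libraries, which are not independent replicates, and mean TPM takes part in the fold change.

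With the members in 4 groups of 27 by span, the shortest (1.78 to 14.0 kb) had 9 that rose and 2 that fell, with a median of 0.20, and the next (14.3 to 38.0 kb) 6 that rose and 12 that fell (0.03). In the third (40.9 to 80.2 kb) 1 rose and 17 fell (-0.46), and in the longest (82.8 to 864 kb) 1 rose and 17 fell (-0.44). Other listed genes of the same spans had medians of 0.23, 0.07, -0.47 and -0.52. By calls, 33.3% of the shortest members were higher and 7.41% lower, against 40.4% and 20.4% of the other genes, and 3.70% of the longest were higher and 63.0% lower, against 6.14% and 75.4%. In the second group 22.2% were higher and 44.4% lower, against 24.6% and 42.4%, and in the third 3.70% and 63.0%, against 12.0% and 66.3%. The subunits that moved apart within a complex also differ in span, with SRP14 at 3.45 and SRP72 at 36.3 kb, TRAPPC1 at 1.78 and TRAPPC8 at 124 kb, VPS25 at 6.16 and VPS36 at 38.0 kb, and COPE at 19.9 and COPA at 54.7 kb. SEC11C (19.4 kb) and SPCS3 (12.3 kb) run the other way, and so do TMED3 (116 kb) and TMED2 (14.0 kb). The part of gene length in these differences was not tested.

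**Figure D4:**
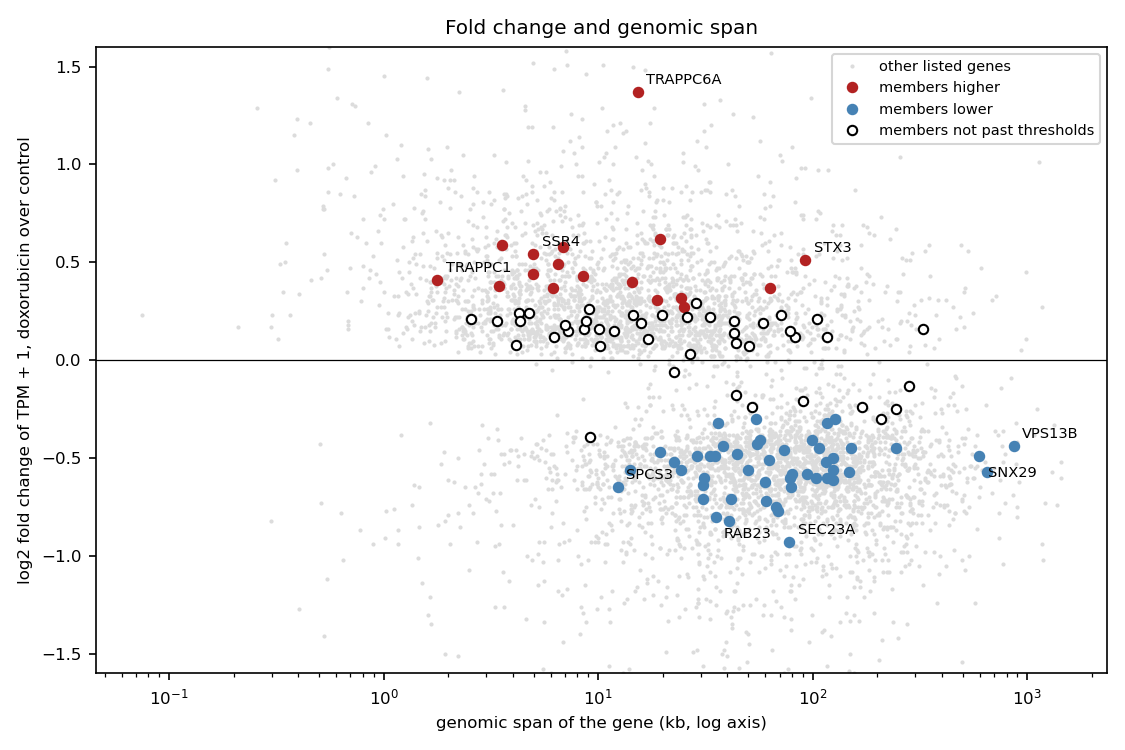
Genomic span (kb, log axis) against log2 fold change of TPM + 1 (doxorubicin over control) for the 108 members over the other listed genes with a known span, where each point is a gene and 162 other genes beyond ±1.6 are not drawn. Of the 17 red members only STX3 spans more than 80.2 kb, and of the 48 blue members only TMED2 and SPCS3 span 14.0 kb or less.

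Other genes of the same route were read from a list of 123 that the name pattern leaves out, such as cargo receptors, clathrin, SNARE partners and RAB regulators. Of these 41 are listed and all were tested, and 9 rose (22.0%, against 22.7% of all genes) and 20 fell (48.8%, against 48.5%), with a median of -0.17, against -0.19 in the members. STXBP2, which guides syntaxin fusion, rose from 3.75 ± 1.25 to 9.46 ± 0.518 TPM (1.17), RABAC1, a membrane receptor of prenylated RABs, from 421 ± 14.0 to 675 ± 50.4 TPM (0.68), and BCAP31, an ER export chaperone, from 248 ± 12.3 to 355 ± 15.1 TPM (0.51). EPN2, an endocytic adaptor of clathrin, fell from 14.0 ± 0.996 to 7.20 ± 1.66 TPM (-0.89), TGOLN2, a marker protein of the trans-Golgi network, from 54.5 ± 5.70 to 29.1 ± 3.90 TPM (-0.88), and LMAN1, a receptor that takes glycoproteins into COPII vesicles, from 56.4 ± 5.48 to 32.0 ± 4.06 TPM (-0.80; SD, n = 3 each). The 6 adjusted p-values from limma lie between 1.14e-05 and 0.000512.

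By group, the 5 Golgi matrix and tether partners gave 4 lower and none higher (median -0.60), the 9 RAB regulators 3 higher and 6 lower (-0.44), the 4 clathrin genes 1 higher and 2 lower (-0.30), the 7 partners at ER exit 3 higher and 2 lower (0.16), the 5 SNARE partners 1 higher and 2 lower (0.08) and the 11 genes of endosomal sorting 1 higher and 4 lower (0.06). These small counts stand beside 22.7% higher and 48.5% lower of all genes. SNF8, the ESCRT-II subunit missing from the name pattern, was at 149.7, 129 and 148 TPM and 177, 179 and 177 TPM (0.32, adjusted p = 0.00191), on the same side as VPS25. Without control replicate 2 its fold was under the limit (0.25). On the quantile scale 7 partners were higher and 12 lower, and on the median-ratio scale 20 were higher and 17 lower.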

How the data were processed

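Per the labels, total RNA of WI-38 cells was sequenced; the submitters' processing notes name CASAVA, HISAT2, StringTie, RSEM, DESeq2, edgeR and the build GRCm38, a mouse build, with no roles or versions, while the identifiers are human Ensembl ones. The authors deposited 1 value per gene and library, taken here as TPM because the values are not whole, RSEM is named and each library's listed genes make up 54.3 to 60.0% of the total that TPM fixes. FPKM would differ by 1 factor per library. The deposited table also holds the authors' group means, fold changes, p-values and direction, which were not used. The aligner settings, annotation and test behind it are not given in the sources used here. It lists only genes the authors called, so the fit here describes size and spread and is no second test.

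The fit was made on log2(TPM + 1) for genes averaging 1 TPM or more, by limma 3.58.1 in R 4.3.3 with the trend and robust options of eBayes, over the 3 control and 3 doxorubicin libraries, with Benjamini-Hochberg adjustment. Alternatives were another pseudocount, other filters, scales and thresholds, a replicate block and fits without each library in turn. Members, compartments, partner and marker lists and tests were chosen with earlier results of these data known. Genes given with values per library are, by compartment, the 2 largest rises and 2 largest falls past the thresholds without overlap, the 5 members with the highest levels and listed members of paralog sets, and of the partners the 3 largest rises and falls; others were chosen after their values were seen, so that each compartment is described whole. Positions come from GENCODE release 29 (GRCh38), promoters from RefSeq (GRCh38.p14). The 5 motifs were chosen after matches of these and other motifs had been counted. Python 3.11.15, pandas 2.3.3, NumPy 2.4.6, SciPy 1.17.1 and matplotlib 3.10.9 were used.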

Additional observations from a re-analysis of the deposited data

How the results depend on the processing

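The scale of the values moved the counts most. Members higher went from 17 to 28 after quantile normalization and 49 after median-ratio scaling, and members lower from 48 to 26 and 31. The members' median of -0.19 became 0.01 and 0.03, and -0.02 when the filter was raised to 5 TPM. Partners past the thresholds went from 29 to 19 and partners lower from 20 to 12 after quantile normalization, and partners higher from 9 to 20 after median-ratio scaling. With no minimum fold, 30 members and 15 partners were higher. A pseudocount of 0.1, no filter on low values, limma without trend and robust, and the study's unadjusted p left 64 to 69 members past the thresholds. Leaving out each library in turn gave 59 to 63 members past the thresholds (15 to 18 higher, 42 to 47 lower), a members' median of -0.21 to -0.10, and 27 to 30 partners (8 to 10 higher, 19 to 20 lower). Over the 108 members and 7 named partners and all alternatives, 1556 of 1715 values kept their side of the thresholds, 74 came to pass, 84 no longer passed and 1 reversed (VPS54, from -0.30 to 0.05 after quantile normalization). The cause of these changes was not tested.

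Replicate numbers are shared by the groups, but samples with the same number did not deviate together (correlations of -0.06, -0.19 and -0.23). With deviations from means of 3 libraries this cannot exclude a pairing, and the main fit used none. With the replicate block 61 members passed, 16 higher and 45 lower, and 29 partners, 9 higher and 20 lower, and RAB4B (adjusted p = 0.0663), RAB27A (0.0579), TRAPPC11 (0.0808) and VPS54 (0.0901) were the 4 members that no longer passed. TPM keeps no depth, so what depth limits is unknown, and 3 libraries per group limit the precision.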
